A study of Mus musculus with 20 samples.

Results

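The genes described here carry the electrical excitation and the calcium cycle of the heartbeat. They are 39 genes of the deposited table, found by name among its 48795 Ensembl genes, for ion channels, pumps, exchangers, gap junctions and the calcium store of the sarcoplasmic reticulum (SR). All 39 lie outside the segment duplicated in the mutants and so are present in 2 copies in every genotype, and each averaged 10 or more normalized counts over the 20 hearts, the minimum that left 15304 genes for testing.

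RNA was measured in whole mouse hearts at E13.5 on the C57BL/6J background, with 1 library per embryo. There were 10 wildtype (WT) hearts, 5 Dp1Tyb hearts and 5 hearts labelled Dp1TybDyrk1a+/+/-. Dp1Tyb embryos carry an extra copy of the region of mouse chromosome 16 from Lipi to Zbtb21, in every cell of the body, and so model Down syndrome. Genes of human chromosome 21 whose mouse counterparts lie elsewhere stay at 2 copies in them. In Dp1TybDyrk1a+/+/- embryos the same duplication is combined with 1 null allele of Dyrk1a (Dyrk1atm1Mla), a gene within the duplication, which leaves 2 functional copies of that kinase gene while the rest of the segment stays at 3 copies. WT embryos have neither allele, and the labels name no treatment. By the study's methods the WT embryos were littermates of the mutants and the 2 mutant genotypes were bred as separate strains, but the labels do not tie WT hearts to litters, so all 10 served both comparisons. The Dp1TybDyrk1a+/+/- strain goes back to 1 founder in which recombination joined the duplication and the null allele on the same chromosome. Hearts are named here by the running number of their library. The values are log2 normalized counts, and 95% intervals and P-values come from limma, adjusted by the Benjamini-Hochberg method over all 15304 genes, with an adjusted P-value under 0.05 as the threshold.

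A cardiac action potential begins with inward sodium and calcium currents, and the calcium that enters through L-type channels opens ryanodine receptors of the SR, which release far more calcium to the sarcomere. The calcium is then pumped back into the SR by the SERCA2 pump, held in check by phospholamban, or exported by the sodium-calcium exchanger. Potassium channels repolarize the membrane, pacemaker channels set the rhythm, and gap junctions pass the current from cell to cell.

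Dyrk1a itself averaged 11.37 ± 0.044 (SD) in the 10 WT hearts, against 11.69 ± 0.040 in the 5 Dp1Tyb hearts and 11.76 ± 0.056 in the 5 hearts labelled Dp1TybDyrk1a+/+/-, so its gene-level RNA did not separate the mutants in the direction of the functional copy number. A gene-level value does not tell RNA of the null allele from RNA of an intact allele, so it does not check that label. The paper did check it: its RNAseq showed exons missing from 1 Dyrk1a allele. Its proteomic data also showed more DYRK1A protein in Dp1Tyb than in Dp1TybDyrk1a+/+/- hearts. All 12 cardiomyocyte markers averaged over 10 normalized counts and no marker of any cell type list was at 0 in all hearts, while the skeletal muscle marker Myod1, the lung marker Sftpc, the neuronal marker Th and the pericyte marker Vtn averaged under 10. Xist, which is expressed in female cells, was over 10 on the log2 scale in 3 of 10 WT, 4 of 5 Dp1Tyb and 1 of 5 Dp1TybDyrk1a+/+/- hearts, so the genotypes differed in the share of female embryos, and the part of sex in the results was not tested beyond a fit with the Xist level as a covariate. The libraries were sequenced in 3 lanes, and lane 7 held 2 WT, 1 Dp1Tyb and 3 Dp1TybDyrk1a+/+/- hearts. Heart A15 of the Dp1TybDyrk1a+/+/- group had the highest or the lowest value of its group in 26 of the 39, against 7 to 17 for the others. It also stood apart in marker means: 11.93 for atrial markers (other hearts of its group 12.18 to 12.26) and 12.43 for ventricular ones (12.59 to 12.72). Smooth muscle markers were at 11.97 (11.30 to 11.66) and fibroblast and cushion markers at 12.98 (12.58 to 12.85). Its cardiomyocyte marker mean of 14.29 lay within its group (14.22 to 14.36). The part of tissue make-up in the values of A15 was not tested.

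The sequences before the annotated start of 5 genes are shown because the results turn on these genes: Hcn4 and Casq2 varied together with a partner among WT hearts, and Abcc9, Hrc and Camk2d had the moderated t of largest size in the comparisons of Dp1Tyb with WT, Dp1TybDyrk1a+/+/- with WT and Dp1Tyb with Dp1TybDyrk1a+/+/-, respectively. Each line gives the 250 bases before the start of an annotated transcript, 5′ to 3′ on the strand of the gene, from RefSeq on GRCm38.p6, and for Abcc9 and Camk2d that start lies inside the span of the gene. Capitals mark matches, on either strand, to 4 motifs: CATTCC (the M-CAT element of muscle genes, bound by TEAD factors), GATAA (the core bound by GATA factors), TATAA (the TATA box) and the MEF2 consensus.
Hcn4 (chr9:58822699-58822948, plus strand): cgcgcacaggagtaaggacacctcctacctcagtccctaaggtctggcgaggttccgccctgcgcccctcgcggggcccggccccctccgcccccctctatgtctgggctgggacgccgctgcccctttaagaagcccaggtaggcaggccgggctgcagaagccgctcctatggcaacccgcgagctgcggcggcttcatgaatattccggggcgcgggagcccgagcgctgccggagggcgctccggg
Casq2 (chr3:102086165-102086414, plus strand): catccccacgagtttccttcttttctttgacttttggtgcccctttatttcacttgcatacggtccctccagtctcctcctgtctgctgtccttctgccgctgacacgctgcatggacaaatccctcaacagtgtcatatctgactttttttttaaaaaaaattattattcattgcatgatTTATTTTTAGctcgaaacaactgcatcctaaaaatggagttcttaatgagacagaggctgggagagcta
Abcc9 (chr6:142702275-142702524, minus strand): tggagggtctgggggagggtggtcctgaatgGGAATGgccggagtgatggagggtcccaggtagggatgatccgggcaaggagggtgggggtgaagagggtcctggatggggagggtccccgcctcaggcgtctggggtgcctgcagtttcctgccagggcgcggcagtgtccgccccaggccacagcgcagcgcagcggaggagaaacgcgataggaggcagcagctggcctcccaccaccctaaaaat
Hrc (chr7:45335019-45335268, plus strand): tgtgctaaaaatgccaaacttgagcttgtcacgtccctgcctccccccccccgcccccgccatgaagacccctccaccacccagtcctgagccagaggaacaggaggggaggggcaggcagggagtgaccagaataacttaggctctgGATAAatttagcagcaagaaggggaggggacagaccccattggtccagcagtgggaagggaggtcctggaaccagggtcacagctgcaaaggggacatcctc
Camk2d (chr3:126596701-126596950, plus strand): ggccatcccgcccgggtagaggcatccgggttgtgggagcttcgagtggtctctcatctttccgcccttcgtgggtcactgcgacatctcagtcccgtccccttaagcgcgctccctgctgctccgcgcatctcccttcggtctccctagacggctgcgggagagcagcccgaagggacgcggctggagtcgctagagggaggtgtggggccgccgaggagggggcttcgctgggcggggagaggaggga

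The 250 bases before Casq2 held a match to the MEF2 consensus beginning 69 bases before the start, a motif found in 2.92% of all 32851 windows of that length. Abcc9 had a match to CATTCC beginning 219 bases before the start (12.6% of all windows), and Hrc a match to GATAA beginning 102 bases before it (22.6%). None of the 4 motifs occurred in the windows of Hcn4 and Camk2d. Over the 35 windows listed for 30 of the 39 genes, 4 held CATTCC (11.4%), 8 held GATAA (22.9%), 2 held TATAA (5.71%, against 22.8% of all windows) and 1 held the MEF2 consensus (2.86%). These matches are letters in a window, and binding was not measured.

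In WT hearts the SERCA2 pump gene stood highest, followed by a subunit of the sodium-potassium pump, the sodium-calcium exchanger and phospholamban. Levels are compared here as normalized counts per kilobase of the canonical transcript, so that genes of different length can be set side by side. Atp2a2, which encodes the SERCA2 pump, led with 8781 ± 558 (SD, n = 10), and its 10 hearts (7900 to 9542) did not overlap those of any other member. Atp1b1, the beta subunit of the sodium-potassium pump, followed at 4483 ± 215, Slc8a1, the sodium-calcium exchanger NCX1, at 3654 ± 256, and Pln, phospholamban, at 3631 ± 304. The ranges of these neighbors in the order overlapped. The pump gene Atp2a2 was thus at 2.42 times its inhibitor Pln per kilobase, while Sln, the atrial SERCA inhibitor sarcolipin, was at 92 ± 7.24, and Pln was at 39.5 times Sln.

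**Figure D1:**
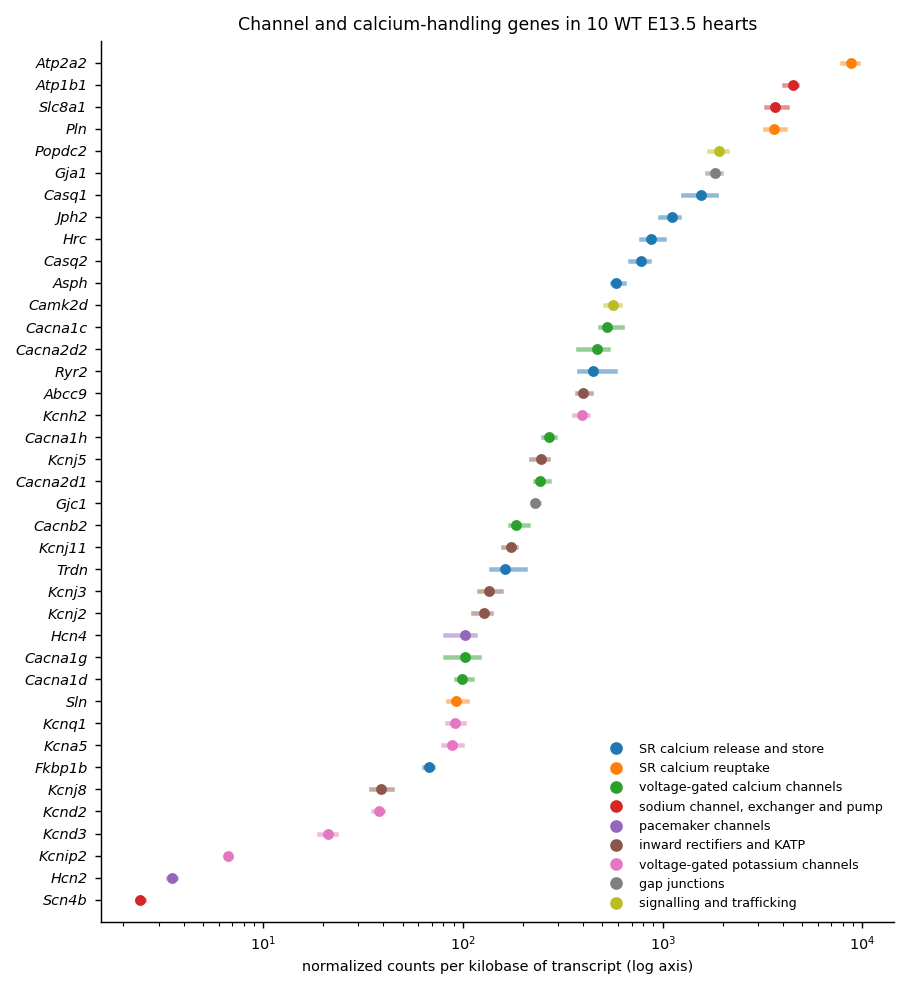
Levels of the 39 genes in WT hearts as normalized counts per kilobase of transcript, on a log axis, ordered by level and colored by role; points are means of 10 hearts and lines run from the lowest to the highest heart. The order runs from Atp2a2 at 8781 to Scn4b at 2.42, and most neighbors overlap.

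Casq1 and Casq2 encode calsequestrins, the calcium-binding proteins of the store, and Casq1, known from skeletal muscle, was the highest of the SR store and release genes per kilobase (1561 ± 171), with Casq2, the cardiac form, at 0.501 times its level. Without the division by length the order was the other way, and Casq2 exceeded Casq1 by 0.36 ± 0.109 on the log2 scale in WT hearts. Jph2, junctophilin-2, which ties the SR to the cell membrane, was at 1113 ± 82.4, Hrc, the histidine-rich calcium-binding protein, at 877 ± 64.3, and Asph, whose junctional products sit at the release site, at 586 ± 24.8. The ryanodine receptor gene Ryr2 was at 449 ± 60.6, and Trdn, triadin, which anchors calsequestrin to the receptor, at 162 ± 17.4. Fkbp1b, a small protein that binds the receptor, was at 67.8 ± 2.48.

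Among calcium channels, Cacna1c, the pore of the main cardiac L-type channel, was at 527 ± 42.2, which was 5.31 times the level of Cacna1d, the other L-type pore. Of the T-type pores, which open at low voltage, Cacna1h was at 2.63 times Cacna1g. The auxiliary genes Cacna2d2, Cacna2d1 and Cacnb2 were at 469 ± 48.5, 244 ± 10.8 and 184 ± 11.6.

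Gja1, the main connexin of working myocardium, was at 1819 ± 111 and 7.88 times Gjc1, a connexin of the early and conducting heart. Popdc2, a cAMP-binding membrane protein needed for pacemaking, was at 1918 ± 132, and Camk2d, the main cardiac calcium/calmodulin-dependent kinase, at 564 ± 28.3.

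Potassium channel genes spanned a wide range. Abcc9, the sulfonylurea receptor SUR2 of the ATP-sensitive potassium (KATP) channel, was at 399 ± 18.7 and Kcnh2, the pore of the rapid delayed rectifier, at 393 ± 20. Kcnj11 and Kcnj8, the KATP pores, differed 4.49-fold in favor of Kcnj11. Kcnj5 and Kcnj3, which form the acetylcholine-gated channel, were at 247 ± 16.9 and 135 ± 11.4, and Kcnj2, the main pore of the inward rectifier, was at 127 ± 7.7. Kcnq1, the slow delayed rectifier pore, was at 91.6 ± 5.8, and Kcnd3 and Kcnd2, the transient outward pores, at 21.2 ± 1.27 and 38 ± 1.57.

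Hcn4, the main pacemaker channel, was at 103 ± 10.7 and 29.3 times Hcn2. The 3 lowest members were Kcnip2, a partner of the transient outward channel, at 6.64 ± 0.128, Hcn2 at 3.5 ± 0.076 and Scn4b, a sodium channel beta subunit, at 2.42 ± 0.0638. Deposited values of genes this weak were drawn toward the average of all hearts, which understates differences in them. Of the 38 steps between neighbors in this order, 26 overlapped in the range of their WT hearts. The 12 steps without overlap included those below Atp2a2, Pln, Casq1, Kcnh2, Kcna5 and Kcnd3.

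The members varied more between hearts than most genes did. The median SD within genotypes was 0.086 on the log2 scale against 0.059 for all genes tested, and 33 of the 39 lay above that median. The largest were those of the T-type pore Cacna1g (0.185), Ryr2 (0.173), Trdn (0.141) and Casq1 (0.139). The smallest, apart from those of the weak genes Hcn2 and Kcnip2, was that of Gjc1 (0.030).

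To determine whether the duplication altered these genes, Dp1Tyb hearts were compared with WT hearts. None of the 39 genes passed the threshold in limma, whereas 3.08% of all genes tested did (471 of 15304), and 0 to 5 of the 39 passed it in other settings of the fit. The median log2 fold change of the members was -0.019, against -0.002 for all genes, with 25 of the 39 below 0 (64.1%, against 51.5% of all genes). At an unadjusted P-value under 0.05 there were 9 members (23.1%, against 15.6% of all genes). Of these, Abcc9, Kcnj2, Gjc1, Kcnd2, Gja1, Camk2d and Kcnj8 had negative log2 fold changes (7 of 39, against 7.8% of all genes), and Cacna1d and Cacna2d2 positive ones (2 of 39, against 7.77%). On the deposited log2 scale, all 39 intervals of the difference lay within 0.3 (1.23-fold) in either direction, and 28 lay within 0.2 (1.15-fold). Deposited values may understate differences: Dyrk1a averaged 11.69 in Dp1Tyb and 11.37 in WT hearts, less than the ratio of 3 to 2 copies. The bounds in this and the other comparisons therefore apply to the deposited values and may be too narrow for the RNA itself. In bulk tissue, fewer cells of a type and less RNA per cell cannot be told apart, and the mean of the 12 cardiomyocyte markers was 14.26 ± 0.105 (SD, range 14.09 to 14.47) in WT and 14.18 ± 0.061 (14.12 to 14.28) in Dp1Tyb, with 10 of the 12 markers lower on average and none past the threshold. The 8 markers of fibroblasts and cushion mesenchyme averaged 12.81 ± 0.123 (12.51 to 12.93) in WT and 12.91 ± 0.078 (12.78 to 12.96) in Dp1Tyb, with all 8 higher on average and none past the threshold. Markers of cardiomyocyte subtypes did not all go the same way. The 5 atrial markers were all above 0 (median log2 fold change 0.050), and 3 of the 4 ventricular markers were below 0 (median -0.062). The paper's single-cell data gave lower shares of ventricular and atrial cardiomyocytes and a higher share of fibroblasts in the Dp1Tyb heart it analyzed. It reported the cardiomyocyte and fibroblast changes as reversed in Dp1TybDyrk1a+/+/- hearts. The atrial markers here did not go the way of those atrial shares. The part of cell composition in the bulk differences was not tested beyond the fit with the cardiomyocyte marker level as a covariate.

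**Figure D2:**
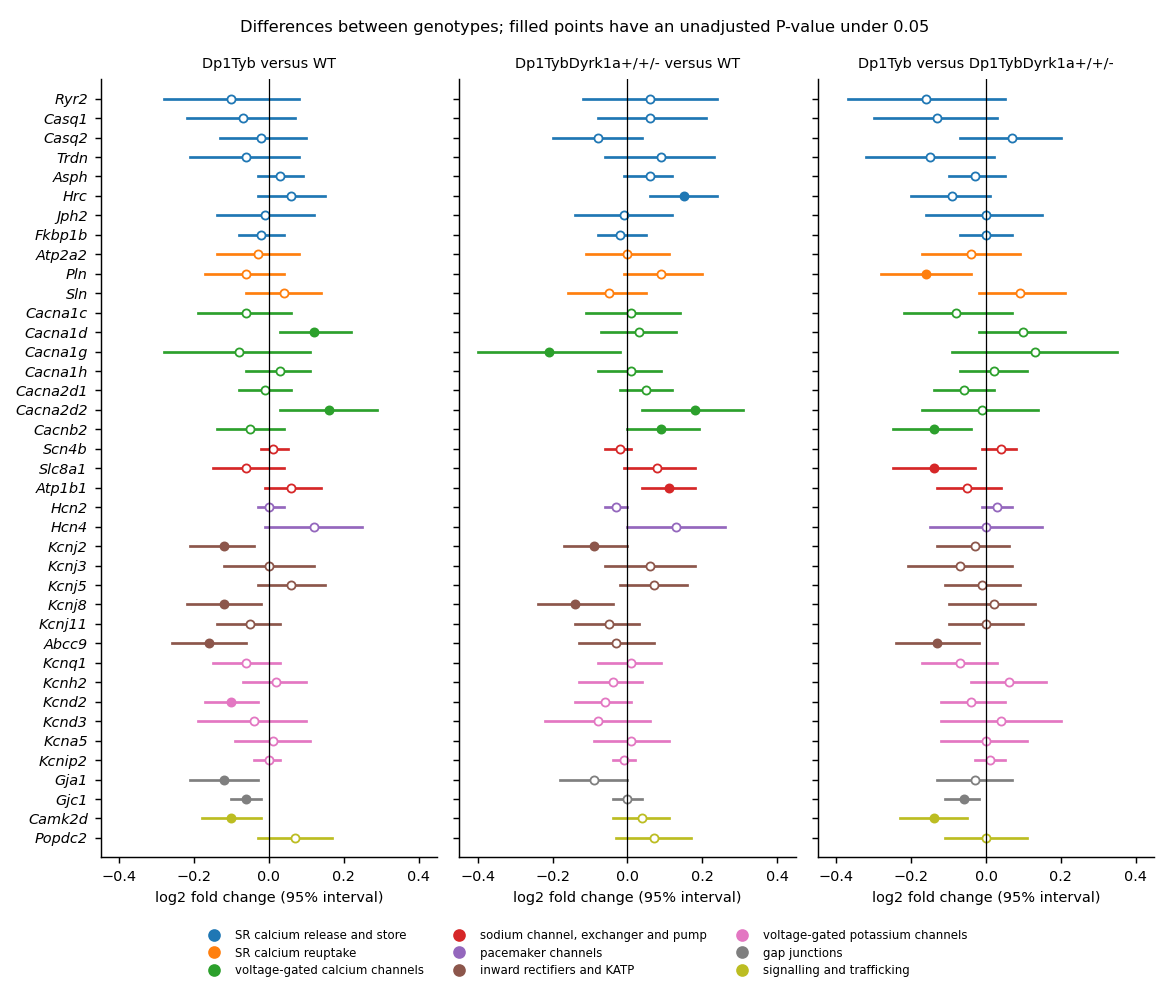
Log2 fold changes of the 39 genes with 95% intervals in the 3 comparisons, ordered and colored by role; filled points have an unadjusted P-value under 0.05. Of the intervals, all 39 lie within 0.3 in Dp1Tyb versus WT, 37 in Dp1TybDyrk1a+/+/- versus WT and 35 in Dp1Tyb versus Dp1TybDyrk1a+/+/-.

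Inward rectifier and KATP genes included the member with the smallest P-value. Abcc9 (chr6:142587862-142702766, GRCm38.p6) ranged from 11.43 to 11.68 in WT hearts with a median of 11.53. In Dp1Tyb hearts it was 11.27, 11.38, 11.30, 11.41 and 11.52, so that 4 of the 5 lay below every WT heart. This gave a log2 fold change of -0.16 (SE 0.047, adjusted P = 0.07). It was -0.12 to -0.18 within each of the 3 lanes, and -0.11 (adjusted P = 0.214) with the cardiomyocyte marker level as a covariate. The adjusted P-value passed 0.05 in 5 of 27 other settings, among them lane as a covariate (0.0217) and the fit without Dp1Tyb heart A12 (0.0353), and it was 0.228 with the Xist level as a covariate. Kcnj8, the KATP pore whose gene lies beside Abcc9 (chr6:142564837-142571614), was 6.83, 6.82, 6.75, 6.68 and 6.71 in Dp1Tyb hearts, against 6.72 to 7.07 (median 6.84) in WT. Its log2 fold change was -0.12 (SE 0.049, adjusted P = 0.204), and -0.19 (adjusted P = 0.00755) with the cardiomyocyte marker level as a covariate. That covariate does not cover other cell types. The 4 pericyte markers tested had a median log2 fold change of -0.012 in Dp1Tyb versus WT, with 2 below 0. In Dp1TybDyrk1a+/+/- versus WT all 4 were below 0 (median -0.109), and none passed the threshold in either comparison. Their relation to Kcnj8 was not tested.

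Kcnj2 (chr11:111066164-111076825) was 9.25, 9.32, 9.32, 9.32 and 9.37 in Dp1Tyb hearts and 9.27 to 9.57 (median 9.45) in WT hearts. All Dp1Tyb hearts thus lay below the WT median, yet only 1 lay below every WT heart. Their difference on the log2 scale was -0.12 (SE 0.041, adjusted P = 0.118), and the adjusted P-value was 0.0355 without WT heart A19, the lowest WT heart for this gene. The other inward rectifier genes were near 0, with Kcnj11 at -0.05, Kcnj3 at 0.00 and Kcnj5 at 0.06.

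Both gap junction genes had negative log2 fold changes. Gja1 (chr10:56377300-56390419) was 12.88, 12.88, 12.99, 13.01 and 12.94 in Dp1Tyb against 12.94 to 13.17 (median 13.09) in WT, a log2 fold change of -0.12 (SE 0.043, adjusted P = 0.154). With the cardiomyocyte marker level as a covariate it was -0.06. Gjc1 (chr11:102799477-102819686) had the smallest spread of the well-expressed members and was 10.31, 10.28, 10.30, 10.31 and 10.23 in Dp1Tyb against 10.31 to 10.40 (median 10.33) in WT. The groups touched at 10.31 to 2 decimals and did not overlap before rounding, which made Gjc1 the only member without overlap, as against 2.63% of all genes tested. Its log2 fold change was -0.06 (SE 0.020, adjusted P = 0.125), and it had the same sign in all 3 lanes (-0.10 to -0.04).

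Kcnd2 was 7.67, 7.71, 7.64, 7.67 and 7.71 in Dp1Tyb hearts and 7.68 to 7.84 (median 7.80) in WT hearts. With 3 of 5 hearts below every WT heart, the log2 fold change was -0.10 (SE 0.035, adjusted P = 0.151). The other voltage-gated potassium channel genes lay between -0.06 (Kcnq1) and 0.02 (Kcnh2), with Kcnd3 at -0.04. Camk2d was at -0.10 (adjusted P = 0.176).

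The 2 members with positive values and an unadjusted P-value under 0.05 encode calcium channel subunits, and 14 of the 39 members were above 0. Cacna2d2, an auxiliary alpha2delta subunit, was 11.45, 11.51, 11.57, 11.62 and 11.64 in Dp1Tyb against 11.09 to 11.59 (median 11.43) in WT, and Cacna1d had a log2 fold change of 0.12 (SE 0.048, adjusted P = 0.188). For Cacna2d2 the log2 fold change was 0.16 (SE 0.063, adjusted P = 0.202). The lowest WT heart for Cacna2d2, A2 at 11.09, was also low in Hcn4. The pores Cacna1c, Cacna1g and Cacna1h were at -0.06, -0.08 and 0.03.

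None of the 8 store and release genes had an unadjusted P-value under 0.05, and their log2 fold changes ran from -0.10 (Ryr2, 95% interval -0.28 to 0.08) to 0.06 (Hrc). For reuptake, Atp2a2 was at -0.03 (-0.14 to 0.08), Pln at -0.06 (-0.17 to 0.04) and Sln at 0.04 (-0.06 to 0.14). Slc8a1 was at -0.06 (-0.15 to 0.04), and Hcn4 at 0.12 (-0.01 to 0.25).

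The same genes were compared between Dp1TybDyrk1a+/+/- and WT hearts, which differ in all duplicated genes but have equal numbers of functional Dyrk1a copies. This comparison shares its WT hearts with the previous one. None of the 39 passed the threshold, where 0.712% of all genes did (0 to 4 of the 39 passed it in other settings), and the median log2 fold change was 0.006 (all genes, -0.003), with 16 of the 39 below 0 (41%, against 52.6% of all genes). The hearts of the groups overlapped for every member, where 0.64% of all genes did not overlap. At an unadjusted P-value under 0.05 there were 7 members (17.9%, against 9.64% of all genes), with Hrc, Atp1b1, Cacna2d2 and Cacnb2 positive (4 of 39, against 5.02% of all genes) and Kcnj8, Cacna1g and Kcnj2 negative (3 of 39, against 4.61%). The intervals of 37 members lay within 0.3 in either direction, the exceptions being Cacna1g and Cacna2d2. The cardiomyocyte marker mean was 14.29 ± 0.052 (SD, range 14.22 to 14.36) in these hearts.

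Hrc (chr7:45335269-45338973) was 11.21, 11.18, 11.34, 11.15 and 11.20 in Dp1TybDyrk1a+/+/- hearts and 10.90 to 11.29 (median 11.05) in WT. All 5 lay above the WT median, and 1 lay above every WT heart. Hrc thus had a log2 fold change of 0.15 (SE 0.044, adjusted P = 0.185). It was 0.12 to 0.18 within lanes and 0.12 without heart A15, and without WT heart A10, the highest WT heart, it was 0.18 (adjusted P = 0.0107). Atp1b1 was 13.65, 13.56, 13.54, 13.64 and 13.65 against 13.35 to 13.56 (median 13.51), so that 3 hearts lay above every WT heart. Its log2 fold change was 0.11 (SE 0.034, adjusted P = 0.227).

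Kcnj8 was 6.77, 6.77, 6.76, 6.75 and 6.66 in Dp1TybDyrk1a+/+/- hearts, a log2 fold change of -0.14 from WT (SE 0.049, adjusted P = 0.332). These 5 hearts lay below the WT median of 6.84 but, except for 1 heart, within the WT range. Cacna2d2 was 11.52, 11.52, 11.70, 11.59 and 11.53, a log2 fold change of 0.18 (SE 0.063, adjusted P = 0.353). Cacna1g was 9.45, 9.71, 9.68, 9.46 and 9.32, against 9.40 to 9.98 (median 9.76) in WT. Its log2 fold change of -0.21 (SE 0.092, adjusted P = 0.471) was the largest in size of any member in the 3 comparisons, and its error was the largest in this comparison.

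Abcc9 was at -0.03 in this comparison, Gjc1 at 0.00, Gja1 at -0.09, Kcnd2 at -0.06 and Camk2d at 0.04. The remaining role genes were at 0.06 (Ryr2), 0.00 (Atp2a2), 0.09 (Pln), -0.05 (Sln), 0.01 (Cacna1c), 0.08 (Slc8a1), 0.13 (Hcn4), -0.09 (Kcnj2), 0.01 (Kcnq1) and -0.08 (Kcnd3). For Kcnd3, heart A15 was at 7.63 where the other 4 hearts were 7.09 to 7.18.

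**Figure D3:**
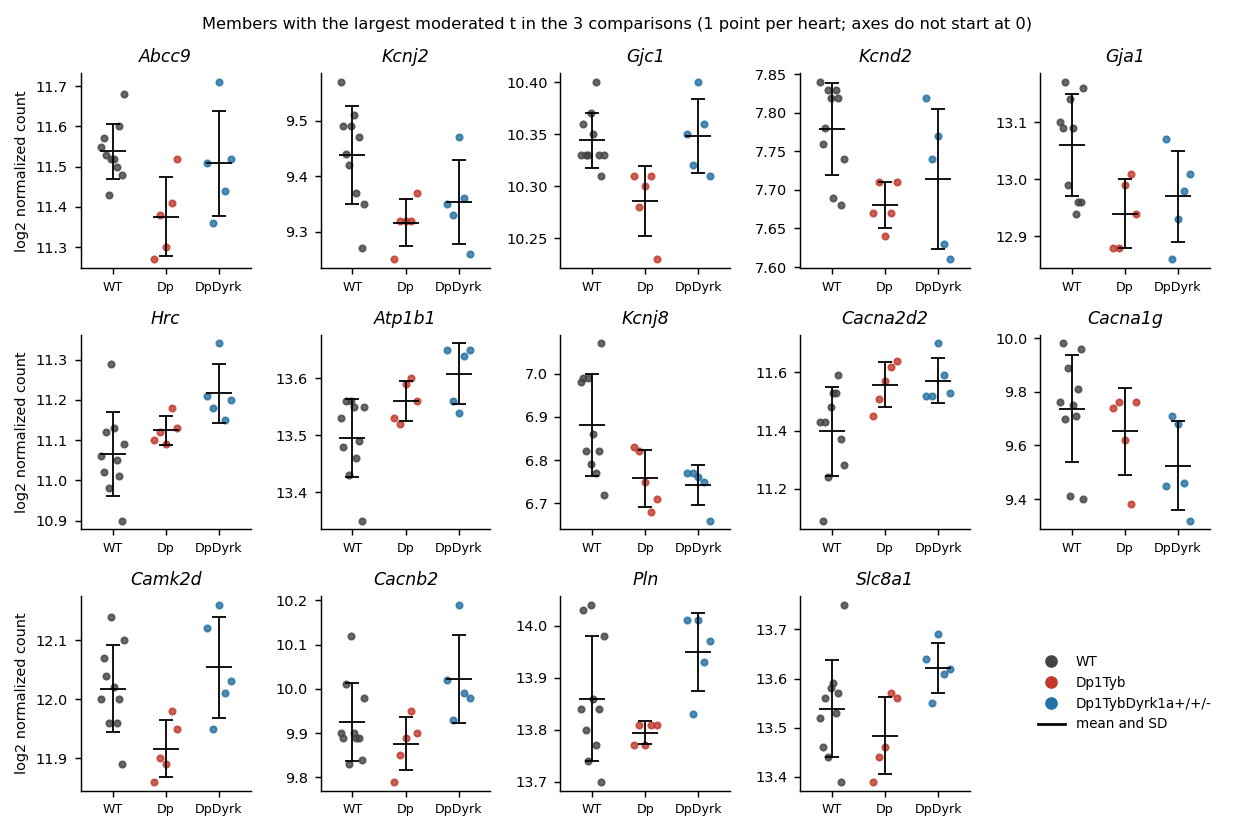
Log2 normalized counts per heart of 14 members, each among the 5 with the largest size of moderated t in at least 1 comparison. Each point is 1 heart, and bars are the mean and SD of 10 WT, 5 Dp1Tyb (Dp) and 5 Dp1TybDyrk1a+/+/- (DpDyrk) hearts. The Pln and Gjc1 values of Dp1Tyb and Dp1TybDyrk1a+/+/- hearts do not overlap, and each axis has its own range that does not start at 0.

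Dp1Tyb and Dp1TybDyrk1a+/+/- hearts differ in the number of functional Dyrk1a copies, and their comparison asks whether the extra copy alters these genes. The mutants came from separate strains, so an effect of strain or litter cannot be told apart from that of genotype here. None of the 39 passed the threshold, where 1.16% of all genes did (0 to 2 of the 39 passed it in other settings). The median log2 fold change of the members was -0.027 (all genes, 0.003), and 28 of the 39 were below 0 (71.8%, against 48% of all genes). At an unadjusted P-value under 0.05 there were 6 members (15.4%, against 18.5% of all genes), all with negative values (against 10% of all genes below 0 and 8.54% above): Camk2d, Cacnb2, Gjc1, Pln, Slc8a1 and Abcc9. The cardiomyocyte markers were also lower on average in Dp1Tyb for 10 of 12 genes, with a median log2 fold change of -0.117 and none past the threshold, while all 8 fibroblast and cushion markers were higher on average (median 0.139, none past the threshold). Of the atrial cardiomyocyte markers, 4 of 5 were above 0 (median 0.033), and 3 of the 4 ventricular markers were below 0 (median -0.086).

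Camk2d (chr3:126595487-126846326) was 11.86, 11.90, 11.89, 11.98 and 11.95 in Dp1Tyb hearts and 12.12, 11.95, 12.16, 12.01 and 12.03 in Dp1TybDyrk1a+/+/- hearts. Of the Dp1Tyb hearts, 4 lay below every Dp1TybDyrk1a+/+/- heart, 1 of them by less than the rounding. Camk2d had a log2 fold change of -0.14 (SE 0.044, adjusted P = 0.112), and -0.07 (adjusted P = 0.401) with the cardiomyocyte marker level as a covariate. Slc8a1 was 13.39, 13.44, 13.46, 13.57 and 13.56 against 13.64, 13.55, 13.69, 13.61 and 13.62. Its log2 fold change of -0.14 (SE 0.053, adjusted P = 0.166) was -0.05 with the same covariate.

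Pln (chr10:53337686-53345999) was 13.77, 13.81, 13.77, 13.81 and 13.81 in Dp1Tyb and 14.01, 13.83, 14.01, 13.93 and 13.97 in Dp1TybDyrk1a+/+/- hearts. These groups did not overlap, nor did those of Gjc1, at 10.23 to 10.31 and 10.31 to 10.40 (not overlapping before rounding), which is 2 of 39 members (5.13%), against 5.65% of all genes. The log2 fold change of Pln was -0.16 (SE 0.058, adjusted P = 0.16), and -0.08 with the cardiomyocyte marker level as a covariate. That of Gjc1 was -0.06 (SE 0.023, adjusted P = 0.152), and the same with that covariate. WT hearts ranged from 13.70 to 14.04 for Pln and so covered both mutant groups.

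Cacnb2, the beta subunit of the L-type channel, was 9.79, 9.85, 9.89, 9.95 and 9.90 in Dp1Tyb and 10.02, 9.93, 10.19, 9.99 and 9.98 in Dp1TybDyrk1a+/+/- hearts, a log2 fold change of -0.14 (SE 0.051, adjusted P = 0.145). Without A15, the heart at 10.19, it was -0.10 (adjusted P = 0.26). The pump Atp2a2 was at -0.04 (95% interval -0.17 to 0.09), so the level of the pump relative to its inhibitor, Atp2a2 minus Pln, was 1.42 ± 0.078 (SD) in Dp1Tyb, 1.30 ± 0.146 in Dp1TybDyrk1a+/+/- and 1.39 ± 0.150 in WT hearts on the log2 scale, with overlapping ranges.

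The remaining role genes were at -0.16 (Ryr2, 95% interval -0.37 to 0.05), 0.09 (Sln), -0.08 (Cacna1c), 0.00 (Hcn4), -0.03 (Kcnj2), -0.07 (Kcnq1), 0.04 (Kcnd3) and -0.03 (Gja1). The intervals of 35 members lay within 0.3 in either direction, and those of Cacna1g, Casq1, Ryr2 and Trdn did not.

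Other genes of excitation and calcium handling, 74 in number with 72 past the filter, were examined for comparison. In Dp1Tyb versus WT 1 of the 72 was called, where 3.08% of all genes were (471 of 15304). The gene called was Chrm2, the muscarinic receptor through which the vagus slows the heart and opens the channel formed by Kcnj3 and Kcnj5. It was 9.12, 9.22, 9.03, 9.09 and 9.17 in Dp1Tyb and 9.25 to 9.49 (median 9.29) in WT hearts, without overlap, and fell by 0.20 on the log2 scale (SE 0.051, adjusted P = 0.0352). In Dp1TybDyrk1a+/+/- hearts Chrm2 was 9.41, 9.24, 9.55, 9.24 and 9.23 (log2 fold change from WT 0.01, adjusted P = 0.961), and Dp1Tyb differed from these hearts by -0.21 (adjusted P = 0.0789). The call in Dp1Tyb versus WT held in 16 of 27 other settings, and the adjusted P-value was 0.1 with the Xist level as a covariate, 0.112 with the cardiomyocyte marker level and 0.123, the highest, without Dp1Tyb heart A6. The median log2 fold change of the 72 genes was -0.004 in Dp1Tyb versus WT and 0.007 in each of the other comparisons.

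From the duplicated segment itself, a list of 5 channel genes was examined, all at 3 copies in both mutants. Kcne1, the beta subunit that pairs with Kcnq1 in the slow delayed rectifier, was 9.84, 9.75, 9.77, 9.70 and 9.84 in Dp1Tyb, 10.07, 9.83, 9.86, 9.82 and 10.01 in Dp1TybDyrk1a+/+/- and 9.39 to 9.80 (median 9.58) in WT hearts. All Dp1TybDyrk1a+/+/- hearts lay above every WT heart, whereas Dp1Tyb hearts overlapped with WT. Against WT, Kcne1 was higher by 0.21 in Dp1Tyb (SE 0.058, adjusted P = 0.0568) and 0.34 in Dp1TybDyrk1a+/+/- (adjusted P = 0.00171), and the mutants differed by -0.14 (adjusted P = 0.28). Its partner Kcnq1 was at -0.06 and 0.01.

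Clic6, a chloride intracellular channel gene, was 6.26 to 6.37 in Dp1Tyb, 6.06 to 6.23 in Dp1TybDyrk1a+/+/- and 6.04 to 6.24 in WT hearts. It rose by 0.16 in Dp1Tyb (adjusted P = 0.0125) and differed between the mutants by 0.17 (adjusted P = 0.046), while Dp1TybDyrk1a+/+/- was at -0.01 from WT. The first call held in 24 of 26 other settings and the second in 6 of 21. Kcnj15 was at 0.14 in both mutants versus WT (adjusted P = 0.0743 and 0.213) and Kcne2 at 0.04 in both. Kcne2 averaged only 16.78 normalized counts and Clic6 73.05, and the deposited values understate differences in weak genes. Differences in stronger genes, such as Kcne1 at 845.3 counts and Kcnj15 at 188.6, may be understated too. The values of these channel genes therefore do not show how far the extra copy raised their RNA. Why Clic6 differed between mutants that both carry 3 copies was not tested. Kcnj6 did not pass the filter.

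To see which members vary together, 8 pairs of partners were compared across the 10 WT hearts, by permutation tests adjusted over the 8 pairs. In 4 of the pairs Pearson's r passed an adjusted P-value of 0.05. Pairs of genes that are not partners were not tested for comparison, so the count does not show that varying together is particular to partners. Hcn4 and Shox2, a transcription factor gene of the sinoatrial node, had r = 0.94 (permutation P = 0.00015, adjusted 0.00088) and Spearman's rho = 0.94 (permutation P = 0.00022, adjusted 0.00176). WT hearts A2 and A20 were low for both genes, with Hcn4 at 9.22 and 9.09 where the other 8 hearts were 9.35 to 9.59, and r was 0.75 without them. The mean of the sinoatrial node markers, Shox2 among them, was also low in A2 (8.93) and A20 (8.85), against 9.25 to 9.37 in the other WT hearts. Casq2 and Trdn, which form the calcium-storing complex of the SR, had r = 0.84 (permutation P = 0.00022, adjusted 0.00088) and rho = 0.82 (adjusted 0.0146), and r = 0.70 without the 2 hearts farthest from the median (A8 and A19).

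Kcnj3 and Kcnj5 had r = 0.76 (permutation P = 0.0126, adjusted 0.0253) and rho = 0.61 (adjusted 0.134). Sln and Myl7, an atrial myosin light chain gene, had r = 0.73 (permutation P = 0.0112, adjusted 0.0253) and rho = 0.82 (adjusted 0.0146). Without the 2 farthest hearts (A10 and A19) r was 0.61 and 0.67, respectively. With 2 hearts left out of each pair in this way, none of the 4 passed the threshold, with 8 hearts in place of 10. With the mean of each lane removed, r was 0.93 for Hcn4 and Shox2, 0.85 for Casq2 and Trdn, 0.83 for Kcnj3 and Kcnj5 and 0.92 for Sln and Myl7, and no lane held more than 4 WT hearts.

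The other 4 pairs did not pass. Kcnj8 and Abcc9, neighbors on chromosome 6 that form 1 channel, had r = -0.51 (adjusted permutation P = 0.178, rho = -0.36). Ryr2 and Jph2 had r = 0.51 (adjusted permutation P = 0.178, rho = 0.50), Cacna1c and Cacnb2 r = 0.13 (adjusted permutation P = 0.788, rho = 0.22), and Atp2a2 and Pln, pump and inhibitor, r = 0.01 (adjusted permutation P = 0.976, rho = 0.15).

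**Figure D4:**
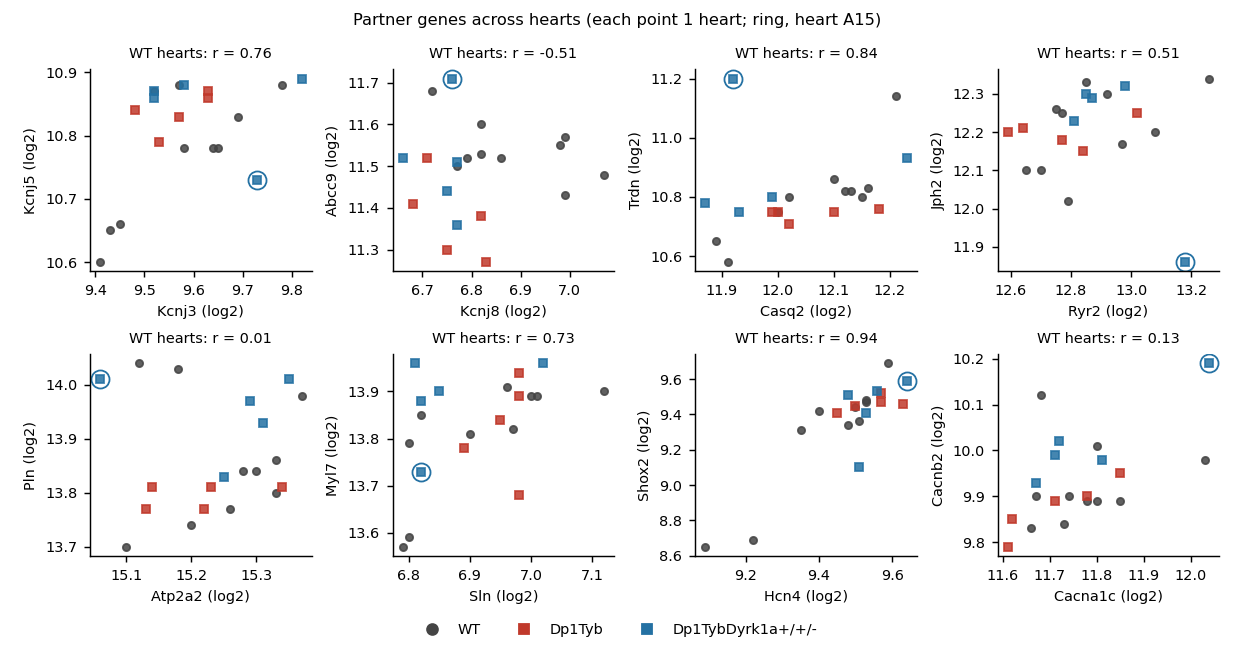
Log2 normalized counts of 8 gene pairs, with 1 point per heart (circles, WT; squares, Dp1Tyb and Dp1TybDyrk1a+/+/-) and a ring around heart A15. The panel titles give Pearson's r over the 10 WT hearts, from -0.51 for Kcnj8 and Abcc9 to 0.94 for Hcn4 and Shox2, and A15 lies away from the other points for Casq2 and Trdn, Ryr2 and Jph2, and Atp2a2 and Pln.

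Among the 10 duplication hearts, with the mean of each genotype removed, only Cacna1c and Cacnb2 passed. Hcn4 and Shox2 had r = 0.42, Sln and Myl7 0.34, Casq2 and Trdn 0.10 and Kcnj3 and Kcnj5 -0.11. Heart A15 moved some of these values: without it, r was 0.83 for Casq2 and Trdn, 0.49 for Kcnj3 and Kcnj5, 0.24 for Sln and Myl7 and 0.20 for Hcn4 and Shox2. For Ryr2 and Jph2 r went from -0.49 to 0.43 without A15, for Atp2a2 and Pln from -0.04 to 0.47, and for Kcnj8 and Abcc9 from -0.34 to -0.62. Cacna1c and Cacnb2 had r = 0.93 (exact permutation P = 0.0016, adjusted 0.0128) and rho = 0.87, and r = 0.81 without A15. Whether r differed between WT and duplication hearts was not tested.

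Finally, each member was set against the mean of the 12 cardiomyocyte markers in the 10 WT hearts, a measure of the cardiomyocyte RNA in each library. Of the 39 members, 27 had r above 0, with a median of 0.60, and 12 passed an adjusted P-value of 0.05 over 78 tests (39 members against this mean and that of the sinoatrial node markers). The share of all genes with such correlations was not computed, so these counts do not set the members apart from other genes. The 11 positive ones were Slc8a1, Popdc2, Cacna2d1, Kcnh2, Abcc9, Atp1b1, Jph2, Kcnj11, Asph, Camk2d and Kcnj5. Popdc2 had r = 0.90 (permutation P = 8e-05, adjusted 0.00624, rho = 0.92), and Slc8a1 r = 0.91 (permutation P = 0.00068, adjusted 0.019, rho = 0.77). Kcnd3 was the only negative one (r = -0.81, permutation P = 0.00434, adjusted 0.0339, rho = -0.90). Without hearts A19 and A20, at the lowest and highest marker mean, r was 0.82 for Popdc2, 0.67 for Slc8a1 and -0.70 for Kcnd3, and the other 9 lay between 0.41 (Asph) and 0.80, with rho at 0.33 for Asph and 0.36 for Cacna2d1. Among the 10 duplication hearts, with the mean of each genotype removed, r of the 12 had the same sign throughout, from 0.19 (Jph2) to 0.68 (Slc8a1) for the positive ones and -0.12 for Kcnd3. All 12 kept their sign with lane means removed, at sizes of 0.77 to 0.93. By Spearman's rho, 7 members passed, of which 6 were among the 12.

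**Figure D5:**
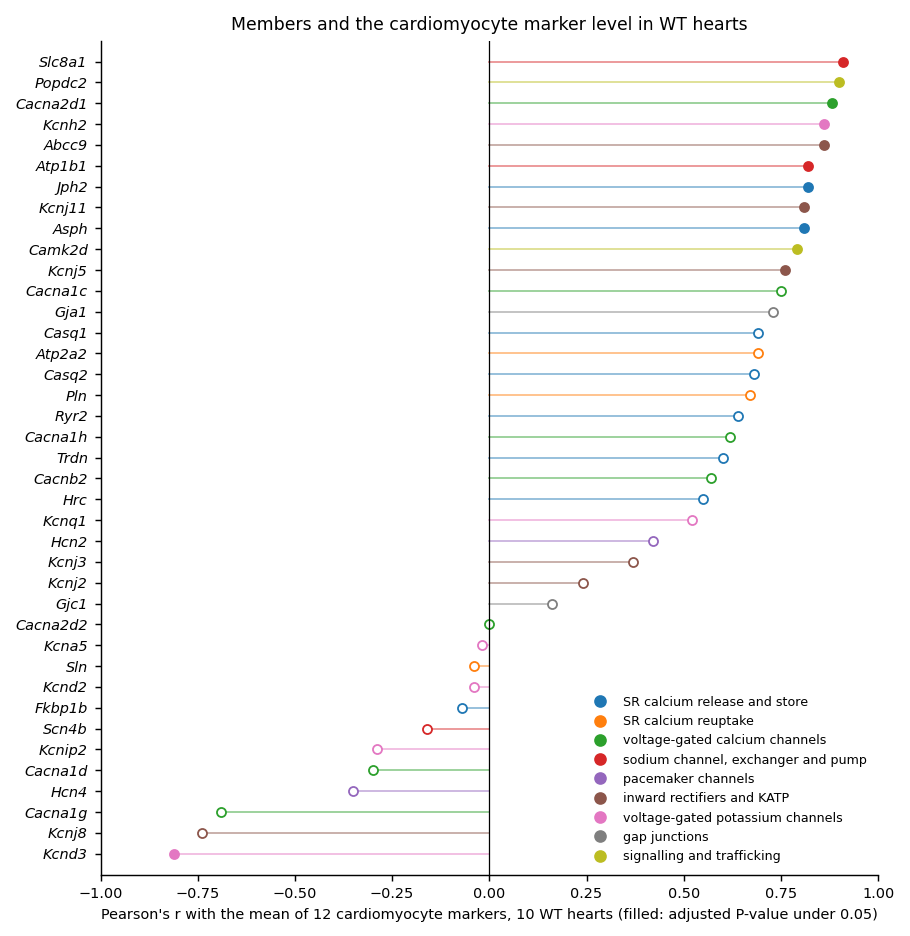
Pearson's r of each of the 39 genes with the mean log2 value of 12 cardiomyocyte markers over the 10 WT hearts, colored by role; filled points have an adjusted P-value under 0.05. Values run from -0.81 for Kcnd3 to 0.91 for Slc8a1, and 27 of 39 are above 0.

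Of the 12 members with r of 0 or below, Kcnj8 was at -0.74 and Cacna1g at -0.69, both with an adjusted permutation P-value over 0.05 (0.0524 and 0.101), and the pacemaker gene Hcn4 was at -0.35. Heart A19, with the lowest marker mean of the WT hearts (14.09), had the lowest value in 19 of the 39 members, and heart A20, with the highest marker mean (14.47), the highest value in 12. The mean of the fibroblast and cushion markers ran the other way, highest in A19 (12.93) and lowest in A20 (12.51) among WT hearts.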

How the data were processed

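RNA from whole hearts (RNeasy, KAPA mRNA HyperPrep) was measured in 20 libraries. The authors deposited log2 normalized counts for 48795 genes, and the values lie close to the gene mean at low levels, as after a regularized log2 transformation. The submitters' processing notes name Trimmomatic 0.36, STAR 2.5.2a, RSEM 1.2.31, DESeq2, DESeq and GRCm38, without roles. Read totals were not analysed here, so depth is unknown and precision rests on the spread between hearts. Strand counting is not given in the sources used here, so overlapping genes were taken as deposited. Groups came from the genotype labels, and the labels do not say which WT hearts were littermates of which mutants, so all 10 WT hearts were used and no fit matched by litter was made.

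Gene names came from GENCODE M39 (200 names searched, 199 matched to 1 gene) and coordinates from RefSeq on GRCm38.p6. Levels per kilobase used 2 to the power of the deposited value and the length of the Ensembl canonical transcript. limma 3.58.1 (R 4.3.3; lmFit, eBayes with trend) was applied to all genes averaging 10 or more normalized counts, with 1 mean per genotype over the 20 hearts. The authors used DESeq2, which needs counts. The fit was tested on simulated data. Intervals used the moderated degrees of freedom. Correlations used two-sided permutation tests with 100000 resamples, and exact tests for the duplication hearts (Python 3.11.15, scipy 1.17.1).

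Full values are given for members past the threshold and for the 5 with the largest moderated t in each comparison, with the levels of 12 members that stand for each role, and other members by range and count. A result among the other excitation and calcium genes is not reported here. All P-values measure the spread between these hearts. The 39 members, the other lists, the pairs and the marker lists were chosen with earlier results of these data known, and the correlations with the cardiomyocyte markers, the lane means removed and the values without heart A15 were added after the data were seen. Other settings were a filter of 100 or none, quantile normalization, centering on the median, a pseudocount of 8, eBayes without trend or robust, weights per heart, lane, Xist or the cardiomyocyte marker mean as a covariate, only the 2 groups compared, and leaving out each heart.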

Additional observations from a re-analysis of the deposited data

Results flagged for a closer look

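In 10 of the 117 sets of hearts (39 members in 3 genotypes), 1 heart lay far from the others of its genotype, by the gap to its nearest neighbor over the range of the group. Chance alone gives about 1 in 20. Heart A15 of the Dp1TybDyrk1a+/+/- group did so for 3 genes: Kcnd3 was 7.63 where the others were 7.09 to 7.18, Jph2 was 11.86 where they were 12.23 to 12.32, and Kcnj5 was 10.73 where they were 10.86 to 10.89. In the same group Sln was 7.02 in heart A9 (others 6.81 to 6.85) and Kcnj8 was 6.66 in heart A18 (others 6.75 to 6.77).

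WT heart A20 was highest for both Cacna1c, at 12.03 (others 11.66 to 11.85), and Cacna2d1, at 11.03 (others 10.80 to 10.92), and WT heart A10 was highest for Trdn, at 11.14 (others 10.58 to 10.86). Dp1Tyb heart A3 was lowest for Trdn, at 10.71 (others 10.75 to 10.76), and for Scn4b, at 3.57 (others 3.63 to 3.66).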

How the results depend on the processing

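No paired analysis was possible because the labels number each heart once, no number is shared between genotypes and litters are not labelled. The count of members called in Dp1Tyb versus WT was 0 and became 5 with weights per heart (Abcc9, Gjc1, Kcnj2, Camk2d and Kcnd2, all lower), where the count over all genes went from 471 to 1422. It was 1 (Abcc9, lower) with quantile normalization, with lane as a covariate and with only the 2 groups compared, and 2 (Atp1b1 higher, Kcnj8 lower) with the cardiomyocyte marker level as a covariate. With weights per heart it was 4 in Dp1TybDyrk1a+/+/- versus WT (Atp1b1 and Hrc higher, Cacna1g and Kcnd3 lower) and 2 in Dp1Tyb versus Dp1TybDyrk1a+/+/- (Camk2d and Cacnb2, lower). Leaving out each heart gave 0 to 1 in Dp1Tyb versus WT (Abcc9 without Dp1Tyb heart A12, Kcnj2 without WT heart A19), 0 to 1 in Dp1TybDyrk1a+/+/- versus WT (Hrc without WT heart A10) and 0 to 0 in the third comparison. The count of pairs that passed in WT hearts was 4, was 1 to 4 when each heart was left out (1 without A19, 2 without A2 or without A8), and was 0 without the 2 hearts farthest from the median. The cause of these changes was not tested, except that fewer hearts enter when some are left out. Of 2952 member values under other settings, 2933 kept their side of the threshold, 19 passed it and none that had passed it was lost or turned its sign, since none passed it at first, and 162 values not past it changed sign. Calls over all genes in Dp1Tyb versus WT also went to 245 with the Xist level as a covariate and 779 with only these groups, and in Dp1TybDyrk1a+/+/- versus WT from 109 to 341 with weights per heart. In Dp1Tyb versus Dp1TybDyrk1a+/+/- they went from 178 to 1247 with weights per heart, 273 with a minimum of 100 counts, 76 with no minimum, 29 with lane as a covariate, 12 with the Xist level, 48 with the cardiomyocyte marker level and 3 with only these groups. Depth is unknown. Differences in weak genes such as Hcn2, Kcnip2 and Scn4b are understated, and those in stronger genes may be too.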
